A study of Homo sapiens with 6 samples.

Results

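The genes described here are the DEAD and DEAH box RNA helicases, chosen by name: identifiers whose gene name starts with DDX or DHX and a number, without a hyphen, and leaving out DDX6, DDX58 and DHX58. They numbered 50 of the 17721 genes in the deposited tables. All 50 were in both tables, and 47 had a mean of at least 1 FPKM over the tables. The name rule also took in the iron-sulphur DNA helicase DDX11, its copy DDX12P, the DDX11-like pseudogene DDX11L2 and the pseudogene DHX40P1.

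The labels describe 6 RNA samples of U2OS, an established human osteosarcoma line, made from control cells (shNC, also called U6) and from cells with DNMT1 knocked down (shDNMT1). Both kinds of cell had been transfected with a plasmid for an NSun2 mutant. NSun2 methylates cytosine in RNA, and DNMT1 maintains cytosine methylation in DNA. Each kind of cell gave 1 input sample, labelled as untreated, and 2 samples of RNA co-immunoprecipitated with the NSun2 mutant. The 2 deposited tables give FPKM, a gene's fragments divided by its transcript length and by all mapped fragments. No header ties them to a sample, a kind of cell, or input against immunoprecipitate. They are told apart here only as first and second, and neither can be read as control or knockdown. Level and abundance below mean FPKM in a table, which may be of input or of co-immunoprecipitated RNA. With 1 value per gene and table there are no replicates, no SD can be given and no test was made, so each difference below is one between these tables. Where 2 FPKM values follow a gene name, the first table comes first.

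RNA helicases of this family use ATP to open short RNA duplexes, to displace proteins from RNA or to clamp onto it. They are named after the letters of a conserved motif, Asp-Glu-Ala-Asp or Asp-Glu-Ala-His, that takes part in ATP hydrolysis. DEAD-box proteins mostly act locally on a duplex and are often controlled by partners with an eIF4G-like (MIF4G) fold. DEAH-box proteins translocate along RNA and are often activated by partners with a glycine-rich G-patch. Proliferating cells need them at each step of RNA life, above all in splicing and in the making of ribosomes.

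In size the tables were alike, with 15167 genes in the first, 16824 in the second and 14270 in both, but how deeply either was sequenced is unknown. DNMT1 had 23.3 and 9.36 FPKM, and NSUN2 559 and 1147 FPKM. Of 9 mesenchymal and osteoblast markers the first table held 3 and the second 6, with VIM at 262 and 407 FPKM, ALPL at 78.4 and 38.0 FPKM, COL1A1 at 3.04 and 0.45 FPKM and RUNX2 at 0.81 FPKM in the second alone. Of 8 markers of other cell types each table held 3: CDH1 at 8.42 and 0.39 FPKM, EPCAM at 2.20 and 0.55 FPKM and CDH5 at 0.31 and 0.82 FPKM. The part of such markers in the differences below was not tested. In bulk RNA, fewer cells of a type and less RNA per cell cannot be told apart. Nor can either be told here from a difference in what was co-immunoprecipitated.

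As a family the helicases stood above the typical gene in FPKM, with medians of 10.7 and 13.6 FPKM, against 4.62 and 5.15 FPKM for all genes in both tables. Their FPKM summed to 1047 and 1198. The 5 highest, DDX39B, DDX39A, DDX56, DHX30 and DDX5, held 42.3% and 40.6% of the family's FPKM. The order of the helicases by level was similar in both tables. For the 47 genes with a mean of at least 1 FPKM, the values on the log2(FPKM + 1) scale correlated between the tables with a Pearson r of 0.966 and a Spearman rho of 0.968, a description across genes that share both libraries.

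**Figure D1:**
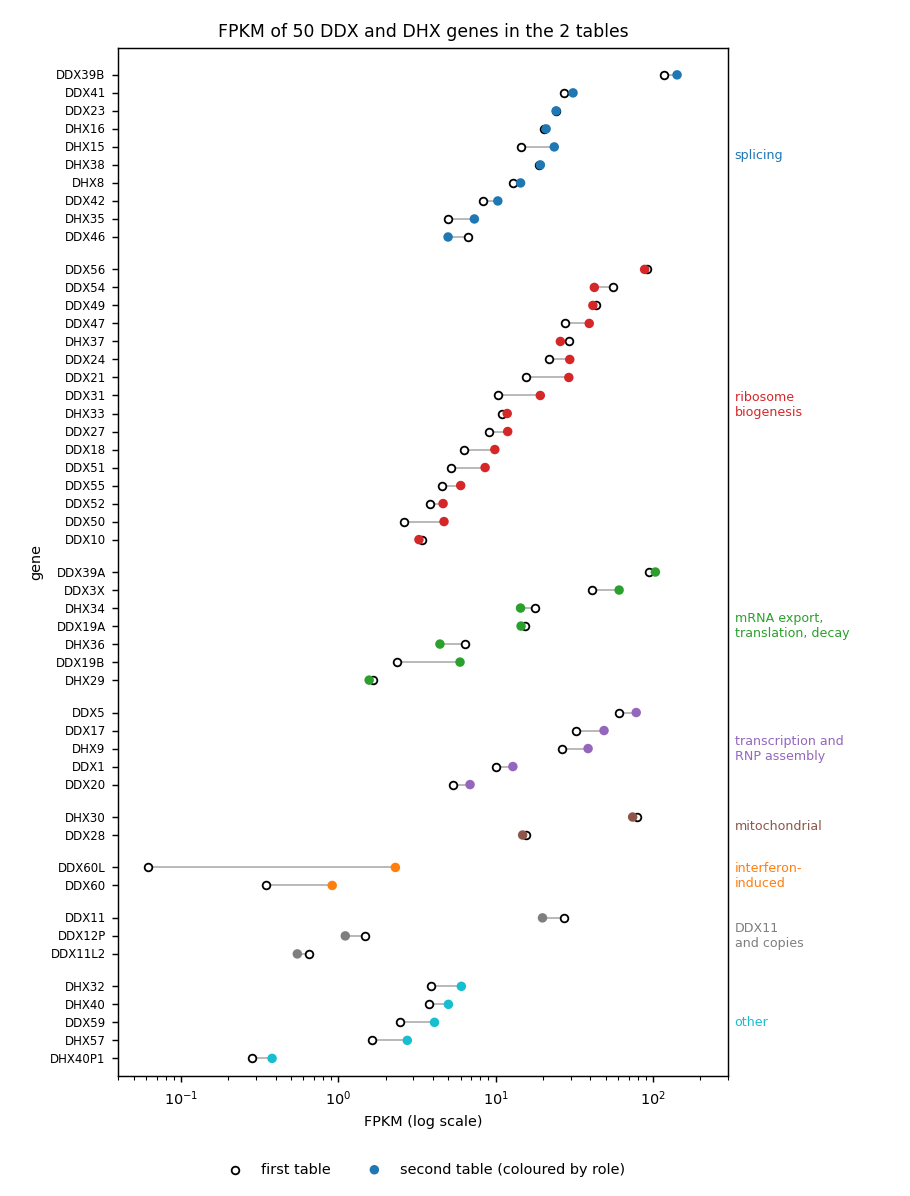
FPKM on a log axis for the 50 helicase genes, grouped by role, with open circles for the first table, filled circles for the second and a line joining the 2 values of a gene. DDX39B is highest at 117 and 142 FPKM, and the longest line belongs to DDX60L, from 0.061 to 2.31 FPKM.

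Between the tables the helicases leaned towards the second. The log2 ratio used throughout is log2 of (FPKM + 1) in the second table over (FPKM + 1) in the first, and it understates differences of low genes. Of the 47 helicases with a mean of at least 1 FPKM, 33 were higher in the second table (70.2%), against 57.5% of the 11416 genes past the same level filter. The other 14 were lower, where 42.5% of all genes were. The median log2 ratio was 0.29 for the helicases and 0.09 for all genes. At least 1.5-fold on this scale, 7 helicases (of 47) were higher and 0 were lower, while 13.8% of all genes were that much higher and 7.84% that much lower. At least 2-fold, the counts were 2 and 0, against 2.4% and 1.82% of all genes, so the share of helicases higher by either fold lies near that of genes in general. One of the 2, DDX60L, passed the level filter only through its value in the second table. The genes with names in DDX, 32 in number, had a median of 0.33, and the 15 with names in DHX a median of 0.10.

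**Figure D2:**
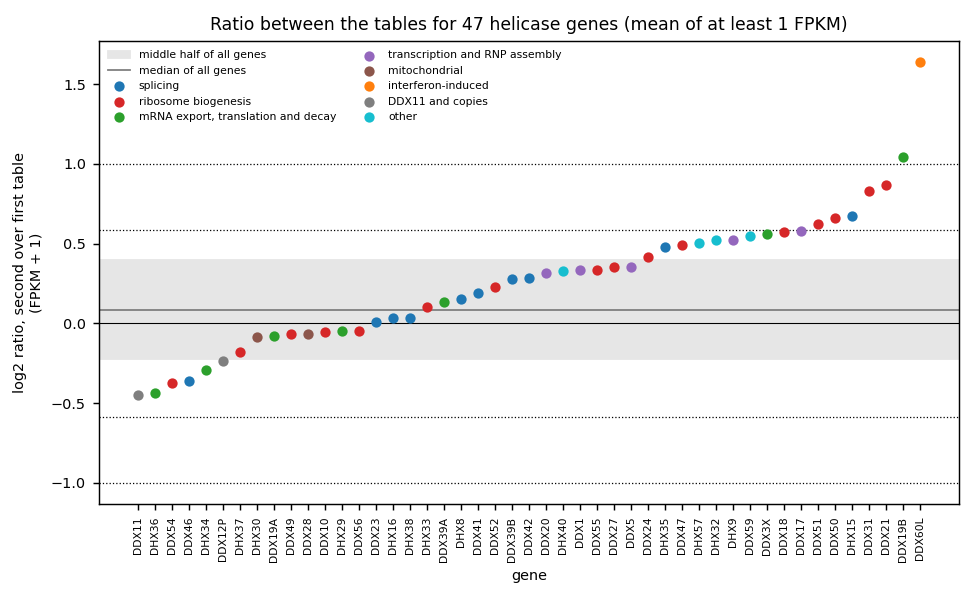
The log2 ratio of each of the 47 helicases, in rising order and coloured by role, with the median (grey line) and interquartile range (grey band) of all 11416 genes. Dotted lines mark 1.5-fold and 2-fold. The ratios run from -0.45 for DDX11 to 1.64 for DDX60L, and 33 of 47 points lie above 0.

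The helicases of ribosome biogenesis formed the largest role group, with 16 genes. They work mostly in the nucleolus, where they remodel the precursor ribosomal RNA and its small nucleolar RNA guides. The group had 11 genes higher (68.8%, against 57.5% of all genes) and 5 lower in the second table, with a median log2 ratio of 0.35. Among its 8 genes sharing no locus, 4 were higher and 4 lower (50% higher, against 59.2% of all such genes). The median of these 8 was 0.26, against 0.11. The whole group held 4 of the 7 helicases that were at least 1.5-fold higher, or 4 of 16 beside 13.8% of all genes. The most abundant was DDX56, a factor of the large ribosomal subunit, with nearly equal values of 91.6 and 88.5 FPKM. DDX54 had 55.4 and 42.4 FPKM and was the lowest of the group by ratio, at -0.38. DDX49 was listed at 43.6 and 41.5 FPKM, and it shared a merged locus with 4 other genes, among them COPE at 101 and 72.0 FPKM.

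DDX21, a nucleolar helicase that also acts in transcription, showed the largest difference of the group, with 15.6 and 29.2 FPKM. Its fold was 1.87 and its log2 ratio 0.87. DDX50 is its close paralog and its neighbour on chromosome 10, where the 2 locus starts are 54.9 kb apart (hg38: DDX50 at 68901278 to 68946847, DDX21 at 68956128 to 68985073). DDX50 had 2.61 and 4.70 FPKM and a log2 ratio of 0.66. Both genes were thus higher in the second table by a similar factor, and DDX21 stood 5.97 times above DDX50 in the first table and 6.21 times in the second. Neither shared its locus with another listed gene. Genes within 1 Mb had median ratios of 0.24 around DDX21 and 0.23 around DDX50, with 2 of 15 at or above DDX21 and 3 of 16, DDX21 included, at or above DDX50. SUPV3L1, a helicase of mitochondrial RNA decay in the same stretch, had a log2 ratio of 0.65, close to that of DDX50.

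DDX31 had 10.4 and 19.2 FPKM and a log2 ratio of 0.83. It lies on chromosome 9 (132592997 to 132694955) in a locus shared with GTF3C4, a subunit of the RNA polymerase III factor TFIIIC, which was also higher in the second table at 12.9 and 17.9 FPKM. DDX51, on chromosome 12 (132136594 to 132144335), had 5.22 and 8.58 FPKM, a log2 ratio of 0.62, while the median of its neighbours within 1 Mb was -0.17. DDX18 followed at 6.33 and 9.89 FPKM, just under 1.5-fold on the log2(FPKM + 1) scale at 0.57. The rest of the group lay closer to equality: DDX47 had a log2 ratio of 0.49, DDX24 of 0.42, DDX27 of 0.36, DDX55 of 0.34 and DDX52 of 0.23. DHX33 had 0.10, DDX10 -0.05 and DHX37 -0.18.

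Promoter sequence was looked at for the helicases that stood higher together. In RefSeq windows (GRCh38.p14), the 250 bases before a start were searched on both strands for 7 motifs, chosen after the values had been seen, and 43 of the 50 helicases had at least 1 window. The letters CCGGAAG, the core of the site that ETS-family factors bind, were in a window of 18 of the 43 (41.9%). For comparison, 10.2% of all 27305 genes with a window held them, and 20.6% of the 8399 with a mean of at least 1 FPKM. Counted by window, the share was 8.52% of 35116. The 43 helicases were not filtered by level, and DDX60 among them lay below 1 FPKM. The median log2 ratio was 0.28 for helicases with these letters and 0.34 for those without. Of the 7 helicases at least 1.5-fold higher in the second table, 4 held them. The letters were thus frequent before helicase genes, and these counts and medians show no single direction with the ratio. DDX21, DDX50 and DDX31 all hold them near the start, and the last 70 bases before one start of each are printed because these genes were the leading ribosome biogenesis helicases by ratio along with DDX51. The 1 window of DDX51 did not hold the letters. Capitals mark CCGGAAG, and each line reads 5′ to 3′ on the gene's own strand.
DDX21 (chr10:68956100-68956169, plus strand): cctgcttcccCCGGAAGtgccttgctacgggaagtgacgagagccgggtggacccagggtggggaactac
DDX50 (chr10:68901245-68901314, plus strand): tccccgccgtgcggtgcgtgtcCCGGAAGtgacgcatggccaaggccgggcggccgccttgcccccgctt
DDX31 (chr9:132669984-132670053, minus strand): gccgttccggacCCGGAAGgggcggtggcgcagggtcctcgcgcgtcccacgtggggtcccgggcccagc
The motif begins 60 bases before the start of DDX21, 48 before that of DDX50 and 58 before that of DDX31, in the gene's direction in each. DDX21 has 2 windows and DDX31 has 3, of which 1 each is shown, and their other windows did not hold CCGGAAG. The E-box letters CACGTG were in a window of 8 of the 43 (18.6%), DDX21 and DDX31 among them, against 11.7% of the genes with a mean of at least 1 FPKM. The other motifs searched were CCAAT (48.8% of the 43 helicases against 42.2% of those genes), the GC box GGGCGG (62.8% against 76.7%), TGACGTCA (11.6% against 3.73%), TATAAA (9.30% against 7.12%) and GAAANNGAA (6.98% against 7.19%). Where letters of different motifs overlap, each was counted.

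Of the 10 splicing helicases, 9 were higher in the second table and 1 was lower, where 57.5% of all genes were higher. The median log2 ratio was 0.17. Several of the ratios were small. With all ratios centred on 0.05, the median of the 14270 genes in both tables, the split became 6 and 4, beside 52.9% of all genes higher. DDX39B, also called UAP56, brings U2 snRNP to the branch point and couples splicing to export, and was the most abundant helicase at 117 and 142 FPKM. It ranked 514 among all genes of the first table and 408 in the second. Its locus also carried the readthrough gene ATP6V1G2-DDX39B, which shares its exons and was listed at 21.7 and 43.5 FPKM. The sum of both was 139 and 186 FPKM, a log2 ratio of 0.42 against 0.28 for DDX39B alone, and how fragments were divided between them upstream was not tested. DDX41, a helicase of the spliceosome mutated in familial myeloid leukaemia, was listed at 27.2 and 31.1 FPKM.

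The DEAH-box helicases DHX16, DHX38 and DHX8, the human PRP2, PRP16 and PRP22, act one after another to drive the spliceosome through catalysis and release of the mRNA. Their levels were 20.4 and 20.9 FPKM for DHX16, 18.8 and 19.3 FPKM for DHX38 and 12.8 and 14.4 FPKM for DHX8, so these 3 were close both to each other and between the tables. DDX23, which acts earlier on the U5 particle, was the helicase nearest to equality at 24.1 and 24.2 FPKM. DHX15, the human PRP43 that takes the spent spliceosome apart, stood apart from them. It had 14.5 and 23.6 FPKM, with a log2 ratio of 0.67, and lies on chromosome 4 (24517441 to 24584550) at a locus of its own. It is the only one of the 10 that was at least 1.5-fold higher. Against genes in regions of like gene density its log2 ratio was 0.41, under that fold. DHX35 had a log2 ratio of 0.48 and DDX42, a helicase associated with SF3b, 0.29. DDX46, the human PRP5 that helps U2 snRNP bind, was the 1 lower gene, at 6.70 and 4.99 FPKM. Its partner at the same merged locus, C5orf24, went the other way, at 4.39 and 8.61 FPKM.

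The 5 helicases of transcription and RNP assembly were all higher in the second table, as were 57.5% of all genes. Their log2 ratios had a narrow range from 0.32 to 0.58 and a median of 0.36. DDX5 and DDX17, paralogs that act as transcriptional coregulators and in microRNA processing, were listed at 61.0 and 78.3 FPKM and at 32.4 and 48.9 FPKM. DDX5 was the more abundant of the pair by 1.88 times in the first table and 1.60 times in the second. DHX9, or RNA helicase A, which resolves long duplexes and R-loops, had 26.6 and 38.7 FPKM. DDX1, part of the tRNA ligase complex, had 10.0 and 12.9 FPKM. DDX20, or GEMIN3, a member of the SMN complex that assembles snRNPs, had 5.33 and 6.88 FPKM. On the log2(FPKM + 1) scale 0 of the 5 were past 1.5-fold, DDX17 lying just under it, while with a pseudocount of 0.1 FPKM, or against genes of like density, DDX17 was past it. All 5 stayed above 0 with the ratios centred on all genes or on genes of like density.

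Helicases of mRNA export, translation and decay were divided, with 3 of 7 higher (42.9%, against 57.5% of all genes) and 4 lower. Their median log2 ratio was -0.05, against 0.09 for all genes. The most abundant, DDX39A (URH49), is the paralog of DDX39B in mRNA export, and was listed at 94.2 and 104 FPKM. The 2 paralogs together made 212 and 246 FPKM, of which DDX39B held 55.5% and 57.9%. DDX3X, which helps ribosomes start on mRNAs with structured leaders, had 41.0 and 61.0 FPKM, a log2 ratio of 0.56. DHX36, which unwinds G-quadruplexes, went the other way, with 6.36 and 4.43 FPKM and -0.44 as log2 ratio. Its relative DHX57 was higher in the second table, at 1.65 and 2.75 FPKM, so that DHX36 stood 3.86 times above DHX57 in the first table and 1.61 times in the second. DHX34, a factor of nonsense-mediated decay, was listed at 17.8 and 14.4 FPKM, and DHX29, which scans structured leaders with the small ribosomal subunit, at 1.66 and 1.57 FPKM.

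DDX19A and DDX19B, near-identical helicases that release mRNA on the cytoplasmic side of the nuclear pore, share 1 merged locus on chromosome 16 (70289663 to 70373383). DDX19A was listed at 15.4 and 14.5 FPKM and DDX19B at 2.37 and 5.94 FPKM. DDX19B therefore had a log2 ratio of 1.04, one of the 2 past 2-fold, while that of DDX19A was -0.08. With the 2 summed, the values were 17.8 and 20.5 FPKM and the log2 ratio was 0.19. DDX19B held 13.3% and then 29.0% of the sum. How fragments were divided between the copies upstream enters this difference, and its part was not tested. GLE1, the cofactor that activates these helicases at the pore, was listed at 13.2 and 19.2 FPKM.

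The interferon-induced pair DDX60 and DDX60L, large relatives linked to antiviral defence, sit next to each other on chromosome 4, with locus starts 140 kb apart. DDX60L rested on 0.061 FPKM, near the lowest values listed, against 2.31 FPKM in the second table, the highest log2 ratio of the helicases at 1.64. DDX60 had 0.35 and 0.92 FPKM, a ratio of 0.51 on that scale, and lay below the level filter. Both were thus low genes that stood higher in the second table. The locus of DDX60L (168356735 to 169010275) was merged with that of PALLD, an actin-binding protein at 11.2 and 13.5 FPKM, and of CBR4 at 0.68 and 0.40 FPKM. DDX60, in contrast, was alone at its locus (168216293 to 168318807).

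The last 100 bases before the starts of these 2 genes are printed because both carry a repeated GAAANNGAA, the core of the interferon-stimulated response element (ISRE), here in capitals.
DDX60 (chr4:168318753-168318852, minus strand): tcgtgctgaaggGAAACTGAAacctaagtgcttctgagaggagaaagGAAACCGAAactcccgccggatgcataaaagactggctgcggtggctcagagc
DDX60L (chr4:168480493-168480592, minus strand): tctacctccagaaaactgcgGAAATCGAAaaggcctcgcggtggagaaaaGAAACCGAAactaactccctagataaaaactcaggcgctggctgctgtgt
In DDX60 the matches begin 88 and 53 bases before the start, and in DDX60L 80 and 50 bases before it, all on the gene's strand. At least 1 match was found in 6.88% of all windows, and at least 2, overlaps included, in 0.567%. Of the 43 helicases, DHX15 was the other gene to hold these letters, with 2 overlapping matches. The match is a description of the sequence and says nothing of the source of the difference between the tables.

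The 2 mitochondrial helicases hardly differed between the tables. DHX30, which supports mitochondrial ribosome assembly, was among the 5 most abundant helicases at 78.8 and 74.3 FPKM. DDX28, which works on the large mitochondrial ribosomal subunit, had 15.6 and 14.9 FPKM at a locus merged with 7 other listed genes. Their log2 ratios were -0.08 and -0.06, and against genes of like density 1 of the 2 lay above 0.

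DDX11, an iron-sulphur DNA helicase that supports sister chromatid cohesion, had the lowest log2 ratio of all, -0.45, with 27.4 and 19.9 FPKM. It lies on chromosome 12 (31020763 to 31104791). DDX12P, a near-identical copy on the same chromosome, was listed at 1.49 and 1.11 FPKM, and the pseudogene DDX11L2 at 0.65 and 0.55 FPKM. The 3 were lower in the second table, as were 42.5% of all genes with a mean of at least 1 FPKM. DDX11L2 lay below that level. DDX11 and DDX12P are so alike that fragments could be divided between them upstream. The antisense gene DDX11-AS1 lay at the locus of DDX11 with 0.89 and 0.71 FPKM, and whether the counting used strand is not stated. Among the genes with no assigned role, DHX32 had 3.91 and 6.06 FPKM, DHX40 3.79 and 5.02 FPKM and DDX59, mutated in an orofaciodigital syndrome, 2.48 and 4.09 FPKM. With DHX57 these made 4 of 4 higher in the second table, as were 57.5% of all genes, with a median log2 ratio of 0.51. The pseudogene DHX40P1 was listed at 0.28 and 0.38 FPKM. Values for the germ cell helicases DDX4, DDX25, DDX43 and DDX53 were not analysed here.

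Known cofactors of DEAD-box and DEAH-box proteins were looked at from lists. These lists also hold partners of helicases outside the name rule, such as EIF4A1 and EIF4A3. Of the 16 DEAD-box cofactors with a mean of at least 1 FPKM, 14 were higher in the second table (87.5%, against 57.5% of all genes) and 2 were lower, with a median of 0.32 against 0.09. The most abundant were EIF4G1, the scaffold of the cap-binding complex, at 219 and 228 FPKM, EIF4H at 98.0 and 125 FPKM and EIF4G2 at 85.6 and 104 FPKM. The 2 lower cofactors were both past 1.5-fold: EIF4G3, at 11.2 and 5.56 FPKM, and MAGOH, a subunit of the exon junction complex, at 13.1 and 7.83 FPKM. MAGOHB, which encodes a nearly identical protein, went the other way at 5.69 and 7.70 FPKM, and their partner RBM8A had 10.9 and 18.0 FPKM. Against genes of like density, 12 of the 16 lay above 0.

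Of the 17 DEAH-box cofactors, 14 were higher in the second table (82.4%, against 57.5% of all genes) and 3 lower, with a median of 0.24. After centring on all genes the split was 12 and 5, with 52.9% of all genes higher. RBM17 (SPF45), a splicing factor with a G-patch, had 4.17 and 11.8 FPKM and was the member past 2-fold with the pseudocount of 1 FPKM. GPATCH1, at 1.03 and 2.80 FPKM, was also past 2-fold with a pseudocount of 0.1 FPKM. TFIP11, a G-patch partner of DHX15 in spliceosome disassembly, had 6.71 and 10.8 FPKM, a log2 ratio of 0.61 beside the 0.67 of DHX15. The most abundant were SON at 23.5 and 33.3 FPKM, RBM10 at 26.6 and 27.9 FPKM and GPKOW, the partner of DHX16, at 25.6 and 26.2 FPKM. GPKOW and DHX16 were both near equality, with log2 ratios of 0.03 each. The 3 lower cofactors were CMTR1 at 17.5 and 13.3 FPKM, ZGPAT at 8.21 and 7.42 FPKM and AGGF1 at 2.24 and 1.98 FPKM. CMTR1 had the lowest log2 ratio of the list, -0.37. Whether cofactors went with their helicases was not tested.

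Of the 18 RNA helicases with other names, 13 were higher (72.2%, against 57.5% of all genes) and 5 lower, with a median of 0.11, near that of all genes. The split was 11 and 7 after centring on all genes and 10 and 8 against genes of like density. EIF4A1, the helicase of translation initiation and the archetype of the DEAD-box family, was listed at 414 and 572 FPKM, above every helicase with a DDX or DHX name. Its locus was shared by 12 identifiers in all. EIF4A3, the clamp of the exon junction complex, had 57.8 and 52.8 FPKM and SNRNP200, the helicase that unwinds U4 from U6, 84.5 and 91.9 FPKM. SUPV3L1, which degrades mitochondrial RNA together with PNPase, was 1.5-fold or more higher at 17.8 and 28.6 FPKM, and HELZ2, an interferon-induced helicase, that much lower at 13.9 and 8.37 FPKM.

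**Figure D3:**
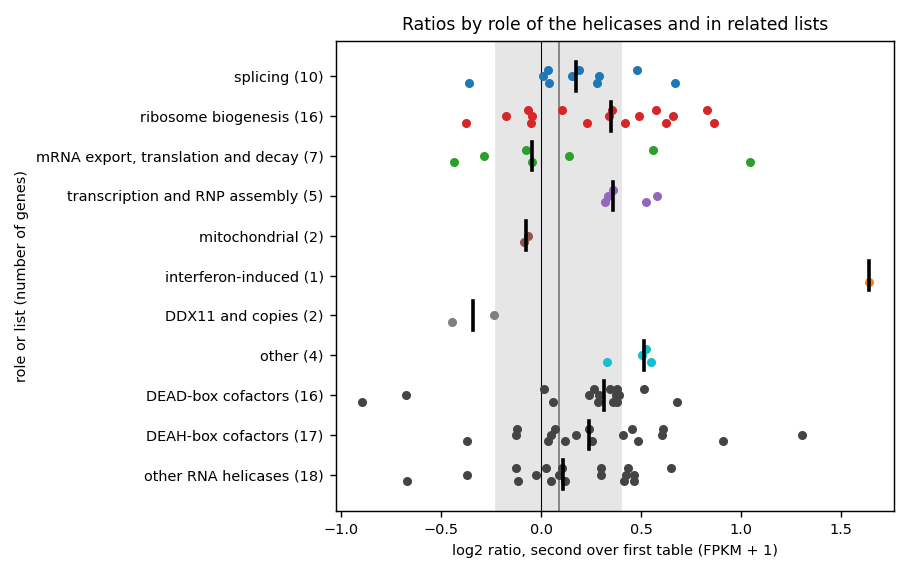
Log2 ratios of single genes (points) and their medians (black bars) for the role groups of the helicases, coloured, and for the cofactor lists and the RNA helicases with other names, in dark grey. The grey line and band are the median and interquartile range of all 11416 genes. The 5 genes of transcription and RNP assembly lie between 0.32 and 0.58, while the 16 of ribosome biogenesis spread from -0.38 to 0.87.

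The ratio between the tables also varied with gene density, taken as how many listed genes start less than 1 Mb away. In 5 classes of near-equal size, the median log2 ratio of all genes went from 0.26 in the sparsest class to -0.13 in the densest. The medians of the helicases were 0.45, 0.42, 0.34, 0.14 and 0.03 in the same order, over 8, 7, 14, 11 and 7 genes, above that of all genes in each class. The share of helicases higher in the second table was nevertheless below that of all genes in the 2 sparsest classes, at 62.5% against 71.1% and 57.1% against 68.3%. Across the 47 helicases the Spearman correlation of ratio and density was -0.205 and the Pearson correlation -0.194, against -0.296 and -0.272 over all 11416 genes. All these genes come from the same 2 tables, so these are descriptions. Set against the median of its density class, a helicase lay above in 34 of 47 cases, and the median of the helicases was 0.19 where all genes have 0 by construction. DDX17, in a dense region with 51 listed genes within 1 Mb, moved from 0.58 to 0.71 on this setting. DHX36, with 1 such gene, moved from -0.44 to -0.70, DDX11 from -0.45 to -0.66 and DDX54 from -0.38 to -0.60, which put these 3 past 1.5-fold lower. DDX11, with 17 such genes, lay on a border between classes with medians of 0.22 and 0.12, so its value rests on tie order. Others moved towards 0, DHX15 from 0.67 to 0.41, DDX50 from 0.66 to 0.54, DDX3X from 0.56 to 0.30 and DDX18 from 0.57 to 0.31. DHX15 and DDX50 were then under 1.5-fold, and 6 helicases were at least that much higher (12.8%, against 8.13% of all genes).

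**Figure D4:**
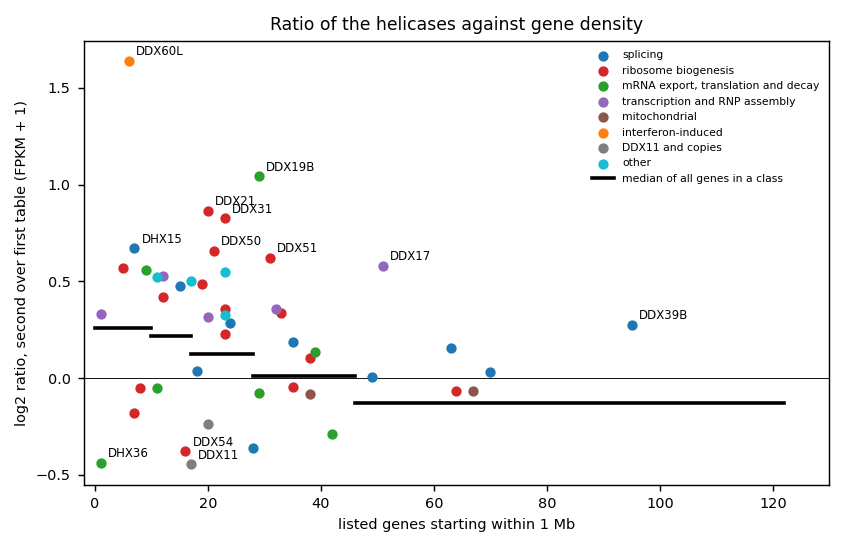
Log2 ratio of the 47 helicases against gene density (listed genes with a start up to 1 Mb away), coloured by role. Black bars are the medians of all genes in 5 density classes, from 0.26 in the sparsest to -0.13 in the densest. All 7 helicases of the densest class lie above its median, among them DDX17 and DDX39B, which has 95 genes nearby.

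The split also differed between helicases with and without a shared locus. Of the 47 helicases, 25 had a merged locus shared with another identifier, and 20 of these (80.0%) were higher in the second table, with a median of 0.32, against 55.5% and a median of 0.06 for the 5246 genes in general that share one. Among the 22 alone at their locus 13 were higher and 9 lower (59.1% higher), with a median of 0.16, against 59.2% higher and a median of 0.11 for the 6170 genes in general that share no locus. The share of higher helicases was thus close to that of all genes where no locus was shared. DDX21, DHX15, DDX50 and DDX51 are the 4 of these 22 that were at least 1.5-fold higher, or 4 of 22 beside 891 of 6170.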

How the data were processed

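Each deposited table pairs a gene and its locus with FPKM, which the authors scaled to transcript length and mapped fragments, per the file headers. Which tool made FPKM is not stated; hg38, MACS 1.4.2, BWA 0.7.13 and cutadapt 1.12 stand in the submitters' processing notes without a role. Depth is unknown, so no interval is given. FPKM is a share of a total.

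Log2 ratios used a pseudocount of 1 FPKM, and counts and medians used genes in both tables with a mean of at least 1 FPKM. Ratio and density code was tested on simulated data. Locus starts were counted from 0 (after adding 1, 1824 starts equalled RefSeq, against 148 without), and coordinates printed here count from 1. All 50 helicase symbols matched RefSeq. Promoter sequences are from RefSeq, GRCh38.p14. TATAAA lay 26 to 36 bases before the start in 371 plus-strand and 396 minus-strand windows, so windows were read on the gene's strand.

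The helicases and lists were chosen with earlier results of these data known. Named genes were the 5 highest, the 3 highest per role group, those at least 1.5-fold different, the paralog pairs and, in the other lists, the 3 highest and any 2-fold different; others named were added after their values were seen. The tests planned for values per library could not be run on tables tied to no sample. Calculations used Python 3.11.15, pandas 2.3.3, numpy 2.4.6, scipy 1.17.1 and matplotlib 3.10.9.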

Additional observations from a re-analysis of the deposited data

How the results depend on the processing

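No paired analysis was possible because no replicate can be told from either table, and the planned comparison of immunoprecipitates with its leave-one-out fits was not run for the same reason. The other alternatives were a pseudocount of 0.1 FPKM, no filter on level, a mean level of 5 FPKM or more, centring on all genes, centring on the gene-density class and genes sharing no locus. A median was taken as moved past 0.1 on the log2 scale and a count past 1.5 times. For the helicases as a whole 26 values stayed within these limits and 10 moved. No median changed sign for them. The number at least 1.5-fold higher, 7, became 12 with a pseudocount of 0.1 (25.5%, against 18.4% of all genes), where ratios grow by construction. It became 4 at a mean level of 5 FPKM or more (11.1%, against 12.0%). For genes sharing no locus it was also 4 (18.2%, against 14.4%), and fewer genes enter in both settings. The number at least 2-fold higher, 2, became 1 after centring on all genes (2.13%, against 1.91% of all genes), where DDX60L was left. It became 0 at a mean level of 5 FPKM or more (against 1.71%) and 0 for genes sharing no locus (against 2.54%). The number at least 1.5-fold lower, 0, became 3 against the gene-density class (6.38%, against 9.93% of all genes). One of these, DDX11, lay on a class border, where its class depends on how ties were ordered. For genes sharing no locus the median became 0.16, with 13 higher and 9 lower. Centring on all genes turned the sign of DDX23, DHX16 and DHX38, and the density class that of DDX28, DDX49 and DHX38. The missing depth limits the low genes most, DDX60L first among them.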
